A study of Mus musculus with 6 samples.

Results

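The tissue inhibitors of metalloproteinases (TIMPs) were followed in mouse left ventricle through all probes of the array annotated to Timp1, Timp2, Timp3 or Timp4. These were 4 of 19057 annotated genes and 7 of 45281 probes, with 2 probes for Timp1, 1 for Timp2, 3 for Timp3 and 1 for Timp4. All 7 passed the filter on dim probes, which left 16691 probes and 9649 genes in all. The study asked what loss of Kdm3a, a histone lysine demethylase, does to the heart under pressure overload. Hearts came from male mice operated on at 6 to 8 weeks of age, with either a sham procedure or transverse aortic constriction (TAC), a partial banding of the aorta that raises the load on the left ventricle. With WT for wild type and KO for Kdm3a-KO, the 6 arrays comprised 1 after sham and 2 after TAC for each genotype (WT Sham, WT TAC, KO Sham, KO TAC). Left ventricles were collected 3 weeks after surgery according to the labels, whereas the study's own text gives a longer interval for this profiling. The labels name the strain c57/BL6 for all samples. The study describes the knockout as global, that is, in every cell type of the body, carried on a mixed FVB and C57 background with littermate controls, and mentions a separate C57 line. Which line was profiled is not settled by these sources. The labels do not say that the 2 TAC arrays of a genotype came from separate animals, so p-values measure only the spread between these arrays, which may be technical.

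TIMPs are small secreted proteins that block the active site of zinc-dependent proteases, chiefly the matrix metalloproteinases (MMPs) and, for Timp3, also members of the ADAM and ADAMTS families. In the heart these proteases and their inhibitors together set how fast collagen and other matrix is turned over. Timp1 is soluble, inhibits membrane-bound MMPs poorly, and also signals through the cell surface protein Cd63. Timp2 has a double role, since it inhibits MMPs and also helps the membrane-bound Mmp14 to activate the precursor of Mmp2. Timp3 binds to the matrix itself, and Timp4 is the member best known for its expression in heart.

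The array reads RNA and not promoter use, but 3 of the 4 members moved in parallel, so the sequence before each start site is shown for comparison. Each line holds the 250 bases upstream of the start annotated by RefSeq on GRCm38.p6, 5′ to 3′ on the strand of the gene, and capitals mark matches to the motifs searched. All 4 members had an entry. The windows were chrX:20869916-20870165 on the plus strand for Timp1, chr11:118355412-118355661 on the minus strand for Timp2, chr10:86300162-86300411 on the plus strand for Timp3 and chr6:115252206-115252455 on the minus strand for Timp4.
Timp1: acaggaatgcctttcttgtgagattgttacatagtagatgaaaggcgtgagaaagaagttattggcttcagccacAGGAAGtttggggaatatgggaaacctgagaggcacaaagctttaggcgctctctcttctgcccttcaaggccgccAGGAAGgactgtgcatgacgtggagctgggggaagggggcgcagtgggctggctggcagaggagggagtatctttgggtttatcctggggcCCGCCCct
Timp2: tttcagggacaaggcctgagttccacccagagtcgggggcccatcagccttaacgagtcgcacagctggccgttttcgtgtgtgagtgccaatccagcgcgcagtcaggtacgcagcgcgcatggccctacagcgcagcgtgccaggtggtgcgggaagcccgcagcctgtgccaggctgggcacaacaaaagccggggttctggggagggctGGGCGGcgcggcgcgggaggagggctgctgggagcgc
Timp3: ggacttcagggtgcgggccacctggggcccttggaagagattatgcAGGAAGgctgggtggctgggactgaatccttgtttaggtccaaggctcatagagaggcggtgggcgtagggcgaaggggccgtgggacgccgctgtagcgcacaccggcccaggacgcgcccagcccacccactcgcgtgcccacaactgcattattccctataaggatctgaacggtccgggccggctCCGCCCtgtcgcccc
Timp4: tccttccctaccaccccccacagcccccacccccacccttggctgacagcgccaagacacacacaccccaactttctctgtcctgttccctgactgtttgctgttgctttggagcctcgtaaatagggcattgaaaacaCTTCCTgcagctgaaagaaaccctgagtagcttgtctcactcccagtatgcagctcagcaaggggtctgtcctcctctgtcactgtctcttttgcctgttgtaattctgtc

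The 4 windows differed in base composition. GC content was 54.4% in Timp1, 68% in Timp2, 65.6% in Timp3 and 53.6% in Timp4, against a median of 52.4% over 32851 promoter windows of the same length. Timp2 held 21 CpG dinucleotides and Timp3 held 18, whereas Timp1 held 6 and Timp4 held 2, with a median of 6 over all windows. The Sp1 motif GGGCGG, searched on both strands, was found once each in Timp1 (bases 8 to 3 before the start), Timp2 (37 to 32) and Timp3 (15 to 10), not in Timp4, and in 32.7% of all windows. The Ets motif AGGAAG, also on both strands, was found at 175 to 170 and 99 to 94 in Timp1, 204 to 199 in Timp3 and 111 to 106 in Timp4, and in 29.5% of all windows. No window of the 4 held the AP-1 motif TGANTCA (6.75% of all windows), the SMAD motif GTCTAGAC (0.167%) on either strand, or TATAAA on the gene's strand (7.59%). No motif match overlapped another. A match of letters is not a binding site, and the absence of one says nothing of sequence outside these windows.

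The arrays were first checked as a whole. Between 14961 and 16015 probes per array (33.0% to 35.4%) exceeded the background level, which lay at an intensity of 149.0 to 155.1 and was the 99th percentile of 1545 probes for olfactory, vomeronasal and taste receptors. Kdm3a probe ILMN_3118169 was above it on the 3 WT arrays (264 to 296) and below it on the 3 KO arrays (129 to 143), in accord with the labels. Kdm3a probes ILMN_2707895 (466 to 502 in WT, 361 to 394 in KO) and ILMN_3043245 (299 to 336 and 196 to 231) were lower but still above background in KO, and the deleted part of Kdm3a is not given by the labels. Both WT TAC arrays were set off from the other 4, with correlations of 0.917 to 0.931 to them, against 0.984 to 0.995 among those 4 and 0.993 within WT TAC. Of 7 ventricular cardiomyocyte markers 6 were measured, and their summed intensity was 133387 to 152689 on every array. Of 6 atrial markers 3 were measured, and Myl7, Sln and Bmp10 were not.

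Timp1 and Timp3 rose strongly, and Timp2 mildly, when wild-type hearts were overloaded. None of the 4 TIMPs passed the test after the same surgery in Kdm3a KO hearts, where none of the 9649 genes tested did. Timp4 was higher in KO than in WT hearts under TAC, with no call for surgery. Values given first are deposited intensities, which are linear, already quantile normalized and comparable between arrays for a given probe but not between probes. Log2 fold changes come from limma on background-corrected, quantile-normalized log2 intensity, are given ± standard error, and count as called at an adjusted p under 0.05 (Benjamini-Hochberg over all 9649 genes). Background correction stretches the ratios of dim probes, so these folds can exceed the ratio of the raw intensities. Where a whole group was below background, the fold is given as at least the ratio of the deposited intensities, with the background level standing for the dim group. The comparisons share arrays: WT TAC enters both its comparison with WT Sham and that with KO TAC, and the values are therefore set side by side without counting them as separate support. Each sham group is 1 array, so its spread had to be borrowed from the TAC arrays.

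**Figure D1:**
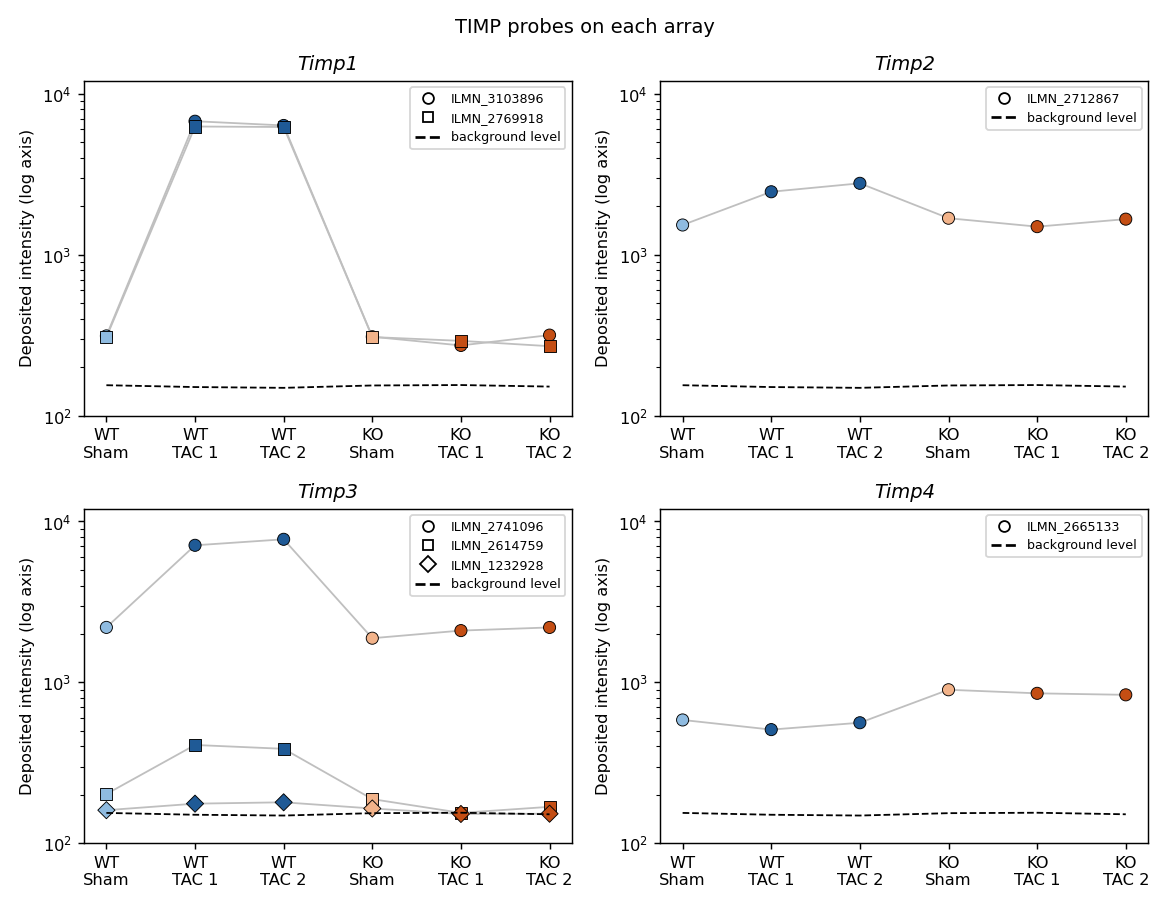
Deposited intensity (log axis) of each of the 7 TIMP probes on each of the 6 arrays, with 1 panel per gene; lines only join the points of a probe and the dashed line is the background level of that array. Timp1, Timp2 and Timp3 are highest on the 2 WT TAC arrays, whereas Timp4 is higher on the 3 KO arrays than on the 3 WT arrays.

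Timp1 probe ILMN_3103896, the brighter of its 2 and the one that stood for the gene, had an intensity of 313 in WT Sham, 6753 and 6356 in WT TAC, 309 in KO Sham, and 273 and 317 in KO TAC. Only the WT TAC arrays were high, and the other 4 arrays interleaved regardless of genotype or surgery. In WT hearts TAC raised Timp1 30.8-fold (log2 4.94 ± 0.20, limma adjusted p 6.07471e-05), which was the twelfth largest rise of all genes tested. In KO hearts the log2 difference between TAC and sham was -0.11 ± 0.20, with a 95% interval of -0.59 to 0.36 (adjusted p 0.999826). After TAC, KO hearts held 33.9-fold less Timp1 RNA than WT hearts (log2 -5.08 ± 0.16, adjusted p 1.5654e-05), the eighth largest difference in that direction, with means of 295 (SD 30.8, n = 2) and 6555 (SD 280.4, n = 2). The difference between the TAC effects of the 2 genotypes, tested as an interaction, was -5.06 ± 0.28 (adjusted p 0.000493). Between the sham arrays Timp1 differed by -0.03 ± 0.23 (adjusted p 0.983). These are bulk samples, in which a change in the number of cells that make a transcript and a change in RNA per cell cannot be told apart.

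The second Timp1 probe, ILMN_2769918, gave the same picture. Its intensity was 307 in WT Sham, 6261 and 6217 in WT TAC, 308 in KO Sham, and 292 and 270.3 in KO TAC. In a fit of all 16691 kept probes it differed by 4.91 in WT TAC vs WT Sham (adjusted p 7.45e-05) and by -5.11 in KO TAC vs WT TAC (adjusted p 1.97e-05), against 4.94 and -5.08 for the other probe. Without background correction the Timp1 rise was smaller (log2 4.39), and so was the difference between KO TAC and WT TAC (-4.48).

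Timp3, the matrix-bound inhibitor, was second in size among the TIMPs. Its brightest probe, ILMN_2741096, read 2198 in WT Sham, 7112 and 7749 in WT TAC, 1883 in KO Sham, and 2099.6 and 2196 in KO TAC. The WT TAC arrays were above the rest, and the 2 KO TAC arrays lay between KO Sham and WT Sham. TAC raised Timp3 3.50-fold in WT hearts (log2 1.81 ± 0.17, adjusted p 0.000897), whereas the log2 difference in KO hearts was 0.20 ± 0.17 (95% interval -0.20 to 0.60, adjusted p 0.999826). KO TAC hearts had 3.58-fold less Timp3 than WT TAC hearts (log2 -1.84 ± 0.14, adjusted p 0.000232), with means of 2148 (SD 68.3, n = 2) and 7430.4 (SD 450.9, n = 2). The TAC effects of the genotypes differed by -1.61 ± 0.24 (adjusted p 0.00986). In the sham pair the log2 difference was -0.24 ± 0.19 (adjusted p 0.789).

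Both other Timp3 probes were dim, and they moved the same way in WT hearts. Probe ILMN_2614759 read 203 in WT Sham, 409 and 387 in WT TAC, 188 in KO Sham, and 155 (below background) and 169 in KO TAC, so WT TAC was again the highest group. It differed by 1.57 in WT TAC vs WT Sham (adjusted p 0.00312) and by -2.35 in KO TAC vs WT TAC (adjusted p 0.00021) on the log2 scale. Probe ILMN_1232928 stayed within a narrow range just above background, at 161 in WT Sham, 177 and 180.1 in WT TAC, 165 in KO Sham, and 152 (below background) and 153 in KO TAC. Its rise in WT TAC was not called (log2 0.38, adjusted p 0.135) and was called lower in KO TAC vs WT TAC (-0.61, adjusted p 0.014). In KO TAC vs KO Sham the 3 Timp3 probes disagreed in sign, with log2 differences of 0.20, -0.55 and -0.32 from the brightest to the dimmest, none called. No file used here says which transcript of Timp3 each probe reads.

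Timp2, which takes part in Mmp2 activation, changed least of the 3 that rose. Its probe ILMN_2712867 had an intensity of 1531 in WT Sham, 2462 and 2778 in WT TAC, 1686 in KO Sham, and 1495 and 1664 in KO TAC. Both WT TAC values were above all others, and the remaining 4 arrays lay within 1495 to 1686. In WT hearts Timp2 rose 1.76-fold (log2 0.82 ± 0.18, adjusted p 0.0171), and in KO hearts the difference was -0.10 ± 0.18 (95% interval -0.53 to 0.33, adjusted p 0.999826). Relative to WT TAC, KO TAC hearts had 1.70-fold less (log2 -0.77 ± 0.15, adjusted p 0.00735), with means of 1579 (SD 119.9, n = 2) and 2620.2 (SD 223.6, n = 2). The difference between the TAC effects was -0.92 ± 0.25 and missed the threshold (adjusted p 0.0596). Both calls were lost when WT TAC replicate 2 was left out (log2 0.72, adjusted p 0.0842, against WT Sham, and -0.68, adjusted p 0.0578, against KO TAC). The sham arrays differed by 0.15 ± 0.21 (adjusted p 0.885).

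Timp4, the inhibitor typical of heart muscle, showed another order of the arrays than the other 3. Probe ILMN_2665133 read 585 in WT Sham, 509 and 562 in WT TAC, 901 in KO Sham, and 856 and 838 in KO TAC. The 3 KO arrays lay above the 3 WT arrays whatever the surgery, and within each genotype sham was slightly above TAC. TAC was associated with log2 differences of -0.16 ± 0.17 in WT (95% interval -0.57 to 0.25, adjusted p 0.518) and -0.10 ± 0.17 in KO (95% interval -0.51 to 0.31, adjusted p 0.999826), and the 2 effects differed by 0.06 ± 0.24 (adjusted p 0.897). KO TAC hearts had 1.72-fold more Timp4 than WT TAC hearts (log2 0.78 ± 0.14, adjusted p 0.0056), with means of 847 (SD 13, n = 2) and 536 (SD 37.2, n = 2). Between the sham arrays the difference was of similar size, 1.66-fold (log2 0.73 ± 0.20), but did not pass (adjusted p 0.48).

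Set by genotype alone, the 3 KO arrays did not overlap the 3 WT arrays for 2 of the 4 members. Timp4 was higher in KO (838 to 901 against 509 to 585, log2 0.77), as were 13.6% of all genes without overlap. Timp3 was lower (1883 to 2196 against 2198 to 7749, log2 -1.31), as were 11.6% of all genes, and the gap rested on KO TAC replicate 2 and WT Sham being nearly equal. The exact two-sided permutation test gave p 0.1 for Timp4 and for Timp3, 0.2 for Timp1 and 0.3 for Timp2. With 3 arrays against 3 it cannot go below 0.1, so none of these 4 tests could have passed. The WT arrays of this pooling include those under overload, so surgery contributes to it for the 3 other members.

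**Figure D2:**
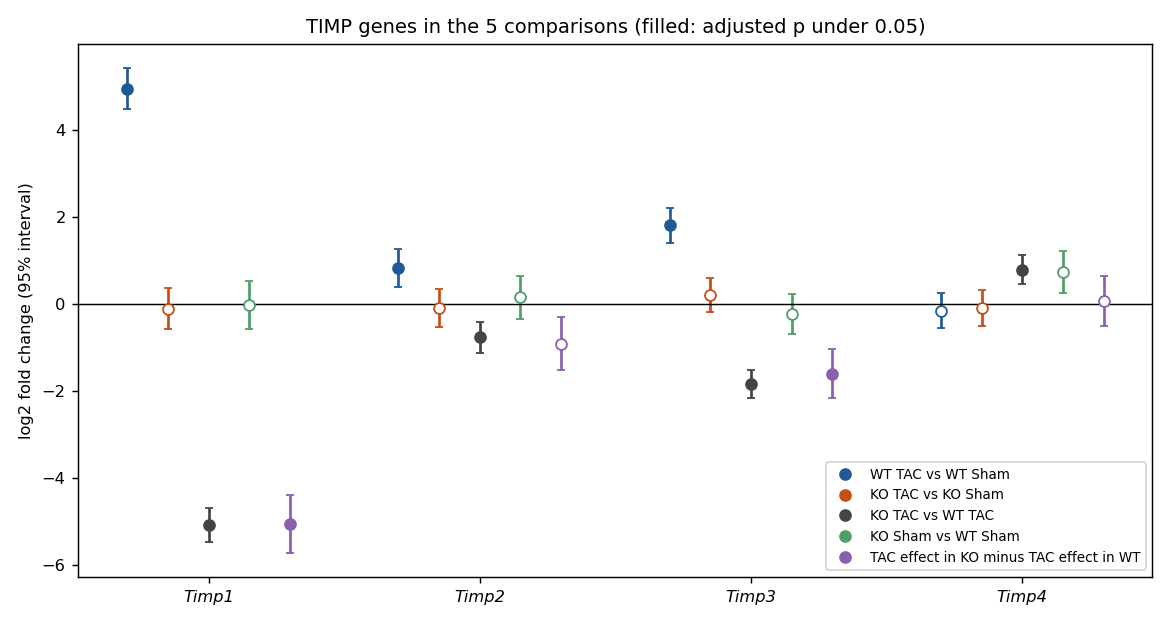
Log2 fold change of the 4 TIMP genes in the 5 comparisons, with 95% intervals from limma; filled points had an adjusted p under 0.05 over 9649 genes. The intervals of KO TAC vs KO Sham include 0 for all 4 genes, while Timp1 and Timp3 have intervals far from 0 in every comparison that involves WT TAC.

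Counted over the family, 3 of 4 TIMP genes were called higher in WT TAC vs WT Sham, where 15.3% of all genes were, and 0 of 4 were called in KO TAC vs KO Sham, where 0% of all genes were. In that comparison limma called no gene in either direction. Before adjustment 126 genes were higher and 128 lower with limma p under 0.05, together fewer than chance alone would be expected to give among 9649. In KO TAC vs WT TAC 3 of 4 were called lower (19.5% of all genes) and 1 higher (21.5%). In KO Sham vs WT Sham 0 of 4 were called, against 0.0622% of all genes. In the interaction 2 of 4 were called lower, against 8.37%. Over probes the counts were 5 of 7 higher in WT TAC vs WT Sham (13.8% of all kept probes), 6 of 7 lower in KO TAC vs WT TAC (18.1%) with the Timp4 probe higher (20.5%), and 4 of 7 lower in the interaction (6.94%). The methods' t-test on the 4 TAC arrays called all 4 genes before adjustment and 0 after it. Of all 9649 genes it called 1768 higher and 1605 lower before adjustment, and 1 higher and 0 lower after it.

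The proteases that TIMPs inhibit moved alongside them in part. Of 23 MMP genes listed, 10 were measured, and 3 of these rose in WT TAC (15.3% of all genes did). Mmp2, a gelatinase, read 1374 in WT Sham, 4422 and 6542 in WT TAC, 1670.3 in KO Sham, and 1660 and 1701 in KO TAC, so its high arrays were those on which Timp2 was high. It rose 4.15-fold (log2 2.05 ± 0.25, adjusted p 0.00225) and was lower in KO TAC by 3.34-fold (adjusted p 0.00125). Mmp14, the membrane protease that works with Timp2, went from 652 in WT Sham to 1460 and 1598 in WT TAC and was 833 in KO Sham and 635 and 803 in KO TAC. That was a 2.59-fold rise (adjusted p 0.00502) and a 2.33-fold lower level in KO TAC (adjusted p 0.00246). Mmp23 changed most of the MMPs, with a 5.43-fold rise and a 5.77-fold lower level in KO TAC.

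For these 3 MMPs the TAC effect also differed between genotypes, by -2.04 for Mmp2, -1.63 for Mmp14 and -2.80 for Mmp23 on the log2 scale (adjusted p 0.0157, 0.019 and 0.00425). By the same test 8.37% of all genes were called lower. In KO TAC vs WT TAC 4 of 10 MMPs were lower and 2 higher, against 19.5% and 21.5% of all genes. Mmp3, a stromelysin, was the other that was lower (3.24-fold, adjusted p 0.011). Mmp13, a collagenase, was at least 1.14-fold higher (adjusted p 0.00182), being below background on both WT TAC arrays (130.4 and 127, against 161 and 179.8 in KO TAC), and Mmp11 was 1.60-fold higher (adjusted p 0.0229, reading 188 and 184 in KO TAC against 148 and 163 in WT TAC, the 148 being below background). Mmp9, the other gelatinase, stayed between 149 and 169 on all arrays and was not called in any comparison. The median log2 fold change over the 10 MMPs was 0.21 in WT TAC vs WT Sham and -0.10 in KO TAC vs WT TAC, against -0.07 and 0.04 over all genes.

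Among the ADAM and ADAMTS proteases, many of which are targets of Timp3, 11 of 27 were measured. In WT TAC 5 were higher and 1 was lower (15.3% of all genes were called higher and 15.8% lower). Adamts4, a proteoglycan-cleaving enzyme, was below background in all but the WT TAC arrays, where it read 724 and 640 (at 139.7 to 144.4 elsewhere), a rise of at least 4.40-fold (adjusted p 9.0326e-05). By the fit Adamts1, also a proteoglycan-cleaving enzyme, rose 9.36-fold, Adamts9 4.97-fold, Adam9 3.16-fold and Adam15 1.58-fold, and Adamts7 fell 1.69-fold. The log2 rise ranged from 1.33 to 3.23 over 3 Adamts1 probes and from 1.06 to 2.31 over 2 Adamts9 probes. For both genes the probe used showed the largest rise. By deposited intensity, the scale of the Adamts4 bound, Adamts1 rose 4.06-fold, Adamts9 4.43-fold and Adam9 2.75-fold, and Adamts7 fell 1.23-fold. In KO TAC vs WT TAC 6 were lower and 2 higher, against 19.5% and 21.5% of all genes. Adamts4 was at least 4.44-fold lower by deposited intensity. By the fit Adamts1 was 8.96-fold lower, Adamts9 5.43-fold and Adam9 3.80-fold. Adamts1 read 170 and 162 in KO TAC against 681 and 646 in WT TAC. Adamts7 was 1.89-fold higher, as was, by 1.52-fold, Adam17, the sheddase inhibited by Timp3. Adamts7 read 206 and 202 in KO TAC against 156 and 158 in WT TAC, the latter just above background. The TAC effect was lower in KO for 4 of the 11 (8.37% of all genes), namely Adamts4, Adamts1, Adamts9 and Adam9. Medians over the 11 genes were 0.66 and -0.78 for the respective comparisons.

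**Figure D3:**
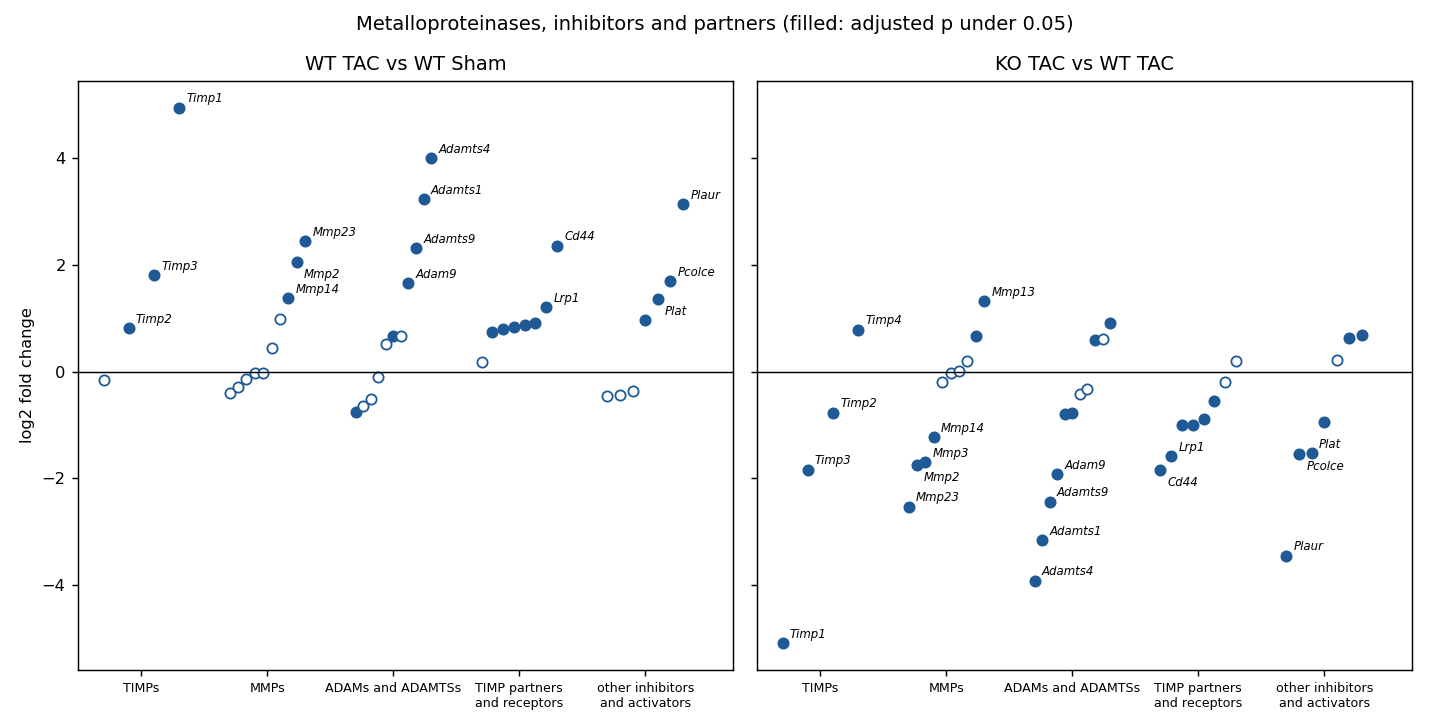
Log2 fold change in WT TAC vs WT Sham (left) and KO TAC vs WT TAC (right) for the measured members of 5 gene lists, each point a gene ordered by its value within its list; filled points had an adjusted p under 0.05. Timp1 has the largest absolute value of all genes drawn in both panels, positive on the left and negative on the right. The panels share the WT TAC arrays. Fitted values of genes below background in a group, such as Adamts4, Plaur and Mmp13, are no bounds.

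Surface proteins and receptors that bind TIMPs rose in WT TAC in 7 of 8 measured cases (10 listed), against 15.3% of all genes. In KO TAC vs WT TAC 6 of 8 were lower, against 19.5% of all genes. Cd63, the tetraspanin that binds Timp1, read 4517 in WT Sham, 8043 and 8381 in WT TAC, 4003 in KO Sham, and 3900 and 4472 in KO TAC. It rose 1.84-fold (adjusted p 0.0122) and was 1.99-fold lower in KO TAC (adjusted p 0.00256). Its partner Itgb1, the integrin β1 chain, rose 1.67-fold (adjusted p 0.0478) and was 1.47-fold lower in KO TAC (adjusted p 0.0497), both close to the threshold. Lrp1, the endocytic receptor that clears TIMPs and MMPs, rose 2.30-fold and was 3.00-fold lower in KO TAC, where it was below background on 1 of the 2 arrays (1.54-fold and 1.70-fold by deposited intensity). Cd44, the hyaluronan receptor, rose 5.12-fold and was 3.57-fold lower. Igf1r rose 1.89-fold and was 1.99-fold lower, and Itga3 rose 1.74-fold and was 1.84-fold lower. Cd74 rose 1.79-fold and was not called in KO TAC vs WT TAC, Cd82 was called in neither, and Kdr and Efemp1 were not measured here. The interaction was called for Cd44 alone (-2.49, adjusted p 0.00875), where 8.37% of all genes were called lower.

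Of 11 other inhibitors and activators of these cascades, 7 were measured. Reck, a membrane-anchored MMP inhibitor outside the TIMP family, rose 1.97-fold in WT TAC (adjusted p 0.0171) and was 1.93-fold lower in KO TAC (adjusted p 0.00663). Pcolce, the enhancer of procollagen cleavage, rose 3.23-fold and was 2.90-fold lower. The plasminogen activator Plat rose 2.56-fold and was 2.88-fold lower, whereas the urokinase receptor Plaur read 573 and 501 in WT TAC and 131 to 160 on the other 4 arrays, below background on 3 of these. Plaur rose at least 3.46-fold (adjusted p 0.00215) and was 3.71-fold lower in KO TAC by deposited intensity (adjusted p 0.000457), 1 of the 2 KO TAC arrays being below background. Urokinase itself, Plau, was at least 1.10-fold higher in KO TAC (adjusted p 0.0217) and the MMP inducer Bsg at least 1.06-fold higher (adjusted p 0.0152), both near background on all arrays and below it on the WT TAC arrays. Furin, which activates the precursor of Mmp14, was not called in any comparison. In the interaction Plaur, Pcolce and Plat were called lower, as were 8.37% of all genes.

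No gene of these 4 lists was called in KO TAC vs KO Sham, where 0% of all genes were. Nor was any called in KO Sham vs WT Sham, where 0.0622% of all genes were. The values with the largest moderated t in KO TAC vs KO Sham were -0.36 for Mmp23 and -0.20 for Mmp1a among MMPs and 0.54 for Adamts15 among ADAMTS genes, where Adamts8 was below background in both groups. They were 0.24 for Cd74 and -0.28 for Lrp1 among binding partners. Among the other regulators they were 0.08 for Reck (-0.85 by its second, dimmer probe) and at least 1.07-fold higher for Plau (adjusted p 0.999826 for each gene). Between the sham arrays they were at least 1.08-fold for Mmp13 and 0.59 for Mmp11, 0.52 for Adamts12 and -0.39 for Adam9, 0.65 for Cd44 and 0.42 for Cd74, at least 1.03-fold for Bsg and -0.23 for Plat (adjusted p 0.384 to 0.82). These are log2 differences except where given as folds.

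In the RefSeq annotation Timp1, Timp3 and Timp4 each lie within a synapsin gene, a gene of synaptic vesicles, namely Syn1, Syn3 and Syn2 respectively, and Timp2 contains Cep295nl. Syn1 was not measured. Syn2 read 174 in WT Sham, 198 and 207 in WT TAC, 209 in KO Sham, and 168 and 240.4 in KO TAC, and Syn3 between 149 and 171 on the 6 arrays. Neither was called in any comparison, with log2 differences of 0.49 and 0.37 in WT TAC vs WT Sham and -0.07 and 0.02 in KO TAC vs WT TAC. For neither gene were the WT TAC arrays the 2 highest.

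Markers of some other cell types were also high on the WT TAC arrays. The shares of all genes called were 15.3% higher and 15.8% lower in WT TAC vs WT Sham, and 21.5% higher and 19.5% lower in KO TAC vs WT TAC. All 4 measured neutrophil markers of 6 listed rose in WT TAC and were lower in KO TAC. Their summed intensity was 7066 and 11742 on the WT TAC arrays and 639.7 to 972 on the other 4. Retnlg and Csf3r were below background outside WT TAC, with rises of at least 5.88-fold and 1.09-fold. Fibroblast markers rose in 6 of 9 (10 listed) and were lower in KO TAC in 6 of 9, at 34180 and 35222 against 20325 to 23387. Among them Col1a2, a collagen chain, was 6.80-fold higher in WT TAC vs WT Sham, and Pdgfra, a surface marker, 1.60-fold higher. Macrophage markers rose in 2 of 9 (10 listed), and 2 were lower and 1 higher in KO TAC, at 8472 and 8967 against 4325 to 6210.2. Cd14, which monocytes and macrophages carry, was 30.4-fold higher in WT TAC vs WT Sham (14.7-fold by deposited intensity), and Fcer1g 2.31-fold. The 7 others measured, including Adgre1, Csf1r and Cx3cr1, were not called in that comparison. Endothelial markers rose in 1 of 7 and fell in 1, at 14252 and 14808 against 11710 to 13003. The marker that rose was Cldn5. The marker that fell was Egfl7, whose 3 probes disagreed in sign (log2 -1.21 to 0.50 in WT TAC vs WT Sham). Smooth muscle and pericyte markers rose in 1 of 6, with 10575 and 13233 against 8779 to 13960.3. In KO TAC vs WT TAC 3 of the 7 endothelial markers were higher and 2 lower, shares above those of all genes. Of the 6 smooth muscle and pericyte markers 1 was higher and 1 lower there. The macrophage and smooth muscle shares lay near those of all genes, as did the endothelial ones in WT TAC vs WT Sham. Erythroid markers rose in 2 of 3 (37925 and 38369 against 34273 to 40999). Ventricular cardiomyocyte markers rose in 1 of 6, the fetal myosin Myh7, and fell in 2, at 137474 and 133387 against 146969 to 152689. Atrial markers rose in 1 of 3 and fell in 1, with a summed intensity of 2640.2 and 3042 against 1100.3 to 1380. Dkk3 rose 19.1-fold and Stard10 fell 5.26-fold, and in KO TAC vs WT TAC Dkk3 was 12.2-fold and Myl4 2.65-fold lower and Stard10 3.81-fold higher. The lymphocyte marker Cd79b did not pass the test, and Cd3e, Cd3d, Cd79a, Ms4a1, Ly6g and Cd68 were not measured here. The part of these cells in the TIMP differences was not tested.

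The genes whose profile over the 6 arrays was nearest to a TIMP were looked up for Timp1 and Timp3, whose log2 values spanned 5.29 and 2.10 (Timp2 spanned 0.94 and Timp4 0.97, under the minimum of 1). Likeness was the root mean square difference of log2 values after each gene was centred on its own mean over the 6 arrays. Nearest to Timp1 was Sphk1, a sphingosine kinase, with a difference of 0.0743. It read 2660.2 and 2505 on the WT TAC arrays and 177 to 193 on the others. Lox, the enzyme that crosslinks collagen, followed at 0.234, then Ptx3 (0.268), a secreted pentraxin, the galectin Lgals3 (0.279) and Ecrg4 (0.291), of which Ptx3 and Ecrg4 were below background outside WT TAC. Nearest to Timp3 was the neurotrophin Bdnf (0.0632), followed by Pxdc1 (0.0665), the annexin Anxa8 (0.0906), the sodium pump regulator Fxyd5 (0.0921) and Aebp1 (0.0924). Bdnf read 1148 and 1318 on the WT TAC arrays against 396 to 414 elsewhere, and Anxa8 was below background outside WT TAC. With 6 arrays of which 2 stand apart, many genes have a profile of this shape.

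**Figure D4:**
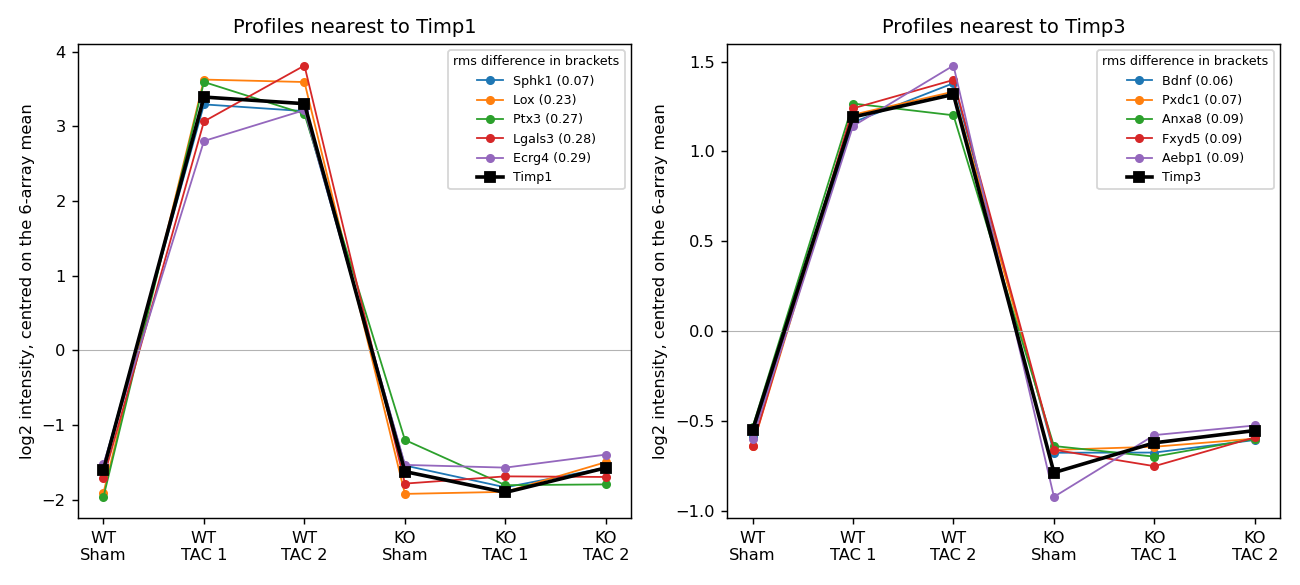
Log2 intensity centred on each gene's mean over the 6 arrays for Timp1 (left) and Timp3 (right), drawn in black, with the 5 genes nearest to each; brackets give the root mean square difference, and lines only join the arrays. In both panels the 2 WT TAC arrays are high and the other 4 are level, with differences of 0.0743 to 0.291 for Timp1 and 0.0632 to 0.0924 for Timp3.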

How the data were processed

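RNA of 6 left ventricle samples was read on Illumina mouse bead arrays. The deposited intensity values, linear and 1 per probe, were summarised by the authors in GenomeStudio 2011.1, and their ranked values matched to within 0.838% across arrays, as after quantile normalization. Background subtraction is not given in the sources used here. A second table with 6 signal and 6 detection p columns whose headings match no sample was not used. Probes had 1 gene symbol in 34885 cases, several in 18 and none in 10378, and 34807 gene identifiers were found in RefSeq (GRCm38.p6).

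Background was corrected with limma 3.58.1 in R 4.3.3 (nec, robust, offset 16, receptor probes as negative controls), followed by log2 and quantile normalization. A probe was kept if at least 2 arrays exceeded the receptor probes' 99th percentile, and the brightest kept probe stood for a gene. One coefficient per group was fitted over all 6 arrays with lmFit and eBayes (2 residual and 4.62 prior degrees of freedom), with 5 contrasts. The fit was tested on simulated data. A fold of at least a value sets the bright group's mean log2 deposited intensity against the background level of the dim group's arrays. The number of arrays limits the precision, and 2 arrays against 2 cannot give an exact p under 0.333.

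Alternatives were no background correction, a larger offset, no second quantile step, no filter or all 6 arrays above background, the mean of all kept probes, a trended robust prior, each TAC array left out, a replicate block, and the methods' t-test.

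Members and lists were chosen with earlier results of these data known. Named genes were all TIMP probes, and per list and comparison up to 4 called genes with the largest fold (the 2 largest moderated t where none passed), with all synapsin hosts and the 5 nearest profiles. Further called list members were named after their values were seen.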

Additional observations from a re-analysis of the deposited data

Results flagged for a closer look

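For Timp1 the response to TAC differed between genotypes by the test of the difference itself. The TAC effect in KO minus that in WT was -5.06 on the log2 scale (SE 0.28, limma adjusted p 0.000493), with an effect of 4.94 in WT and -0.11 in KO. Both WT TAC arrays were above WT Sham, and of the 2 KO TAC arrays 1 was above and 1 below KO Sham.

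Timp3 was marked on the same ground. Its TAC effect in KO minus that in WT was -1.61 (SE 0.24, adjusted p 0.00986), with 1.81 in WT and 0.20 in KO. Each genotype had a single sham array, and both differences rest on these arrays.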

How the results depend on the processing

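When the single-gene results were repeated under the alternatives, 223 repeats kept direction and side of the threshold, 6 lost a call, 4 gained a call and 3 changed sign. The sign changes concerned differences that were never called: Timp1 in KO TAC vs KO Sham was 0.0508 without KO TAC replicate 1 (-0.28 without replicate 2), Timp3 in that comparison was -0.22 with the mean of all kept probes, and the Timp4 interaction was -0.031 without WT TAC replicate 1 (0.14 without replicate 2). The cause was not tested, except that the Timp3 mean adds 2 dim probes. By the methods' t-test after adjustment the number of TIMP genes called in KO TAC vs WT TAC moved from 4 to 0, with adjusted p of 0.064 for Timp1, 0.108 for Timp2, 0.0648 for Timp3 and 0.0901 for Timp4. That test called 1 gene higher and 0 lower of 9649 after adjustment, and 1768 and 1605 before it. Leaving out each TAC array in turn left 2 to 3 TIMP calls in WT TAC vs WT Sham and 3 to 4 in KO TAC vs WT TAC, the loss being Timp2 without WT TAC replicate 2. The Timp2 interaction was called under 4 alternatives, with adjusted p between 0.0231 and 0.163 over all 11. For Timp1 the log2 difference between KO TAC and WT TAC ranged from -5.25 to -4.48, and for Timp3 the highest adjusted p of the interaction was 0.0453.

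A fit with the replicate number as a replicate block, on the 4 TAC arrays, called 4 TIMP genes, and over all genes 2138 higher and 1932 lower against 2075 and 1882 on the same 4 arrays without it, a fit added after seeing the data. The deviations of replicate 1 correlated by 0.0476 between WT TAC and KO TAC. Whether arrays with the same replicate number share a batch was not tested. Probes near background (2 Timp3 probes) limit what their ratios can show.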
